A study of Mus musculus with 10 samples.

Results

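Neurogranin and calmodulin are a pair of partner proteins, and 3 of the 23420 genes in the deposited count table are described here: Nrgn, which encodes neurogranin, and Calm2 and Calm3, which encode calmodulin and are not the whole set of its genes. They were taken from the table by symbol. Nrgn was selected on its measured counts. The rule took it as one of the transcripts most abundant and most consistently higher in Tomato+ than in Tomato- platelets. Calm2 and Calm3 were added as genes of its partner. Every Tomato+ against Tomato- value of the 3 genes below is therefore a description without a test. Platelets, the anucleate cell fragments that megakaryocytes release into the blood, were sorted from the peripheral blood of adult mice into a fraction with the red fluorescent reporter Tomato (Tomato+, 5 libraries) and a fraction without it (Tomato-, 5 libraries). Each library was made from polyadenylated RNA with a full-length Smart-seq+ protocol. The labels give no strain, sex, exact age or further treatment of the mice, do not say which gene drives the reporter, and leave unsaid whether each library is a separate animal, so spreads between libraries may be technical.

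Calmodulin is the small calcium sensor of the cytoplasm: when calcium rises it fills the EF-hand loops of the protein, which then binds and switches kinases, the phosphatase calcineurin, calcium pumps and channels. In platelets a rise in calcium drives shape change, granule release and integrin activation, and calmodulin activates the myosin light chain kinase in that response. Neurogranin is best known from the dendrites of neurons, where it holds calmodulin through its IQ motif at low calcium and lets it go when calcium rises or when protein kinase C phosphorylates a serine in that motif. What neurogranin does in platelets is less well known.

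All 3 genes lie on the minus strand of GRCm38, the assembly that mm10 names, and all are protein-coding in GENCODE M21. Nrgn (ENSMUSG00000053310) spans chromosome 9, 37544492 to 37552904, and its coding transcript of 1453 bases has 4 exons, of which 2 hold the 78 codons. Calm2 (ENSMUSG00000036438) spans chromosome 17, 87433412 to 87446935, and Calm3 (ENSMUSG00000019370) spans chromosome 7, 16915379 to 16924114. Their longest coding transcripts have 1205 and 2290 bases, each with 6 exons and 149 codons. The untranslated 3′ part is the larger difference between them, with 615 bases in Calm2 and 1569 bases in Calm3.

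Calm2 and Calm3 encode the same protein, with 0 differences over 149 codons, although 78 of their 447 coding bases differ (82.6% identical). Of these differences, 74 are in the third base of a codon and 4 in the first. The stretch that encodes the first EF-hand loop (codons 21 to 32, coding bases 61 to 96) shows how reads of one gene can be told from those of the other. The capitals mark the bases that differ between the genes, 7 of 36, and each of them leaves the amino acid unchanged.
Calm2: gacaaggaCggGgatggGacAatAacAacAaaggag
Calm3: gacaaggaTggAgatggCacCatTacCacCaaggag
The longest run of identical coding bases is 17, and no window of 50 bases is common to the transcripts of these 2 genes.

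The calmodulin-binding part of neurogranin is encoded by the stretch from coding base 79 to 144 of Nrgn, with the core of the IQ motif (codons 33 to 39) in capitals.
Nrgn: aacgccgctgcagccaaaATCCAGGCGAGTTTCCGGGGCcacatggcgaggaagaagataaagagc
The pattern that defines this core, isoleucine and glutamine followed after any 3 residues by arginine and glycine, occurred 1 time in the protein.

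How far the counts belong to the named gene alone was checked on the GENCODE transcripts. No window of 50 bases of Nrgn occurred in a transcript of any other gene. In Calm2, 147 of 1156 such windows (12.7%) also occurred in transcripts of 3 other genes, and in Calm3 62 of 2241 (2.77%) occurred in transcripts of 1 other gene. With windows of 100 bases the shared part was 0.995% in Calm2 and 0.137% in Calm3. All shared windows lay inside the coding part, as the map of the transcripts shows. No source used here gives the read length or how multiply aligned reads were counted, so the calmodulin counts are less certain than those of Nrgn.

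**Figure D1:**
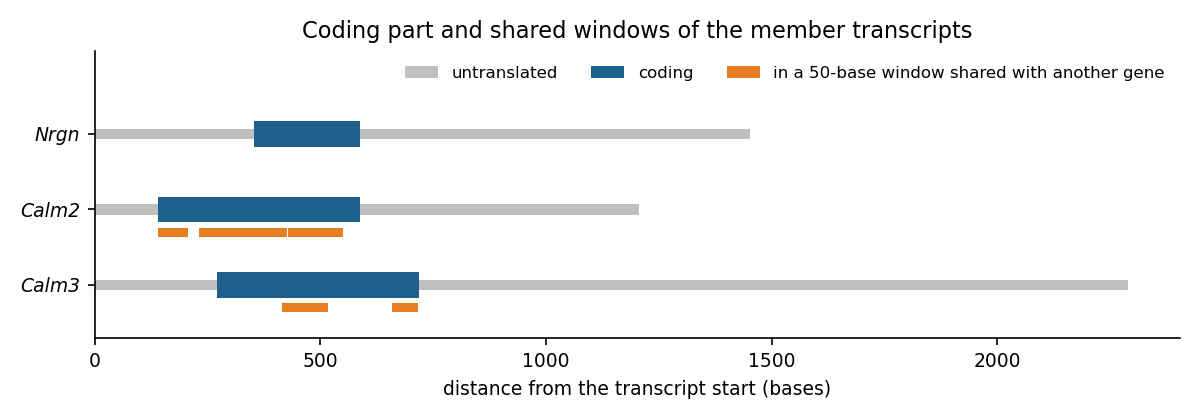
Transcripts of Nrgn, Calm2 and Calm3 drawn to scale by distance from the transcript start in bases, with the coding part in blue, the untranslated parts in grey and, below each, bases covered by a 50-base window that another gene's transcript also holds in orange. Calm2 has 385 such bases, Calm3 has 160, and Nrgn has none.

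Depth and complexity differed between libraries. Totals ran from 6505769 to 16179973 counts in Tomato+ and from 5411417 to 10596707 counts in Tomato-. Genes with a count numbered 1118 to 2450 in Tomato+ and 807 to 2430 in Tomato-, and all 3 libraries with under 1000 such genes were Tomato- (replicates 1, 2 and 5, called low-complexity libraries from here on). Platelet markers had counts for 9 of 9 listed genes and summed to between 43072 and 59736 counts per 1000000 counts of the library (CPM) in Tomato+, against between 46238 and 61282 CPM in Tomato-. Neurons express Nrgn strongly. Of 8 neuron markers 7, Snap25, Syt1, Map2 and Rbfox3 among them, had 0 counts in every library, and the one left, Tubb3, reached at most 11.99 CPM. Among the other marker lists, Lyz2 of monocytes and neutrophils stood out with a mean of 7672 ± 1117 CPM over the Tomato+ libraries, against 7857 ± 1189 CPM over the Tomato- libraries (SD, n = 5 each). It made up nearly the whole sum of the monocyte and macrophage list. Of that list, Csf1r, Cd68 and Ccr2 had 0 counts in every library, and Ms4a6c had counts in 1 library, at 45.2 CPM. The sums of red cell, neutrophil, B cell, T and NK cell and endothelial markers stayed at or below 294 CPM in each library. Cd3e, Cd79a, S100a8 and Cdh5 were at 0 throughout, but the most abundant marker of each list had counts. Tie1 (endothelial) had them in 9 libraries, up to 239.9 CPM, and Cd37 (B cell) in 2, up to 114.8 CPM. S100a9 (neutrophil), Alas2 (red cell) and Nkg7 (T and NK cell) were counted in 1 library each, at 239.8, 183.1 and 20.7 CPM. The count table held 5 of 8 listed red cell, 5 of 6 B cell and 6 of 7 T and NK cell markers.

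Nrgn was abundant in every library. In Tomato+ it had 14930.1, 12490.2, 11858, 10290.4 and 11188 CPM in replicates 1 to 5, and in Tomato- it had 11244, 14092, 9869.9, 7850.9 and 8924 CPM. Tomato+ replicate 1 was the highest and Tomato- replicate 4 the lowest, and the groups overlapped, since Tomato- replicate 2 stood above 4 of the 5 Tomato+ libraries. The mean was 12151 ± 1755 CPM in Tomato+ and 10396 ± 2414 CPM in Tomato- (SD, n = 5 each). The log2 fold change, Tomato+ over Tomato-, was 0.47 (SE 0.16) in edgeR with TMM scaling, which sets libraries to a common level by a trimmed mean of gene ratios. The median log2 fold change of all 1016 tested genes was 0.21 on the same scale. Scaled by total counts, Nrgn had a log2 fold change of 0.23 beside a median of -0.028. In bulk samples, fewer platelets of a kind and less RNA per platelet cannot be told apart.

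Calm2 was present in 8 of 10 libraries. In Tomato+ it had 579.6, 578.3, 988.2, 195.4 and 211 CPM in replicates 1 to 5, and in Tomato- it had 0, 1029, 437.6, 846.6 and 0 CPM. The highest and the lowest values were both Tomato-, with the Tomato+ libraries in between. The 2 libraries at 0, Tomato- replicates 1 and 5, had 8158159 and 5411417 counts in all, where 3 counts correspond to 0.368 and 0.554 CPM. Counting error alone therefore leaves their Calm2 level far below the 195.4 CPM of the lowest Tomato+ library. The mean was 511 ± 326 CPM in Tomato+ and 463 ± 474 CPM in Tomato- (SD, n = 5 each), and the log2 fold change was 0.32 with an SE of 1.82. With the 3 low-complexity Tomato- libraries left out the estimate was -0.25, and with Tomato+ replicate 3 left out it was -0.10.

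Calm3 had counts in all 10 libraries. In Tomato+ it had 721, 507.4, 390.7, 421 and 549.8 CPM in replicates 1 to 5, and in Tomato- it had 145.9, 352, 533, 645 and 287 CPM. The 3 lowest libraries were Tomato- replicates 1, 5 and 2, which are also the 3 with under 1000 detected genes, and the other 2 Tomato- libraries lay within the Tomato+ range. The mean was 518 ± 130 CPM in Tomato+ and 393 ± 198 CPM in Tomato- (SD, n = 5 each). The log2 fold change was 0.53 (SE 1.17). With the 3 low-complexity libraries left out, which leaves 2 of Tomato-, it was -0.18.

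**Figure D2:**
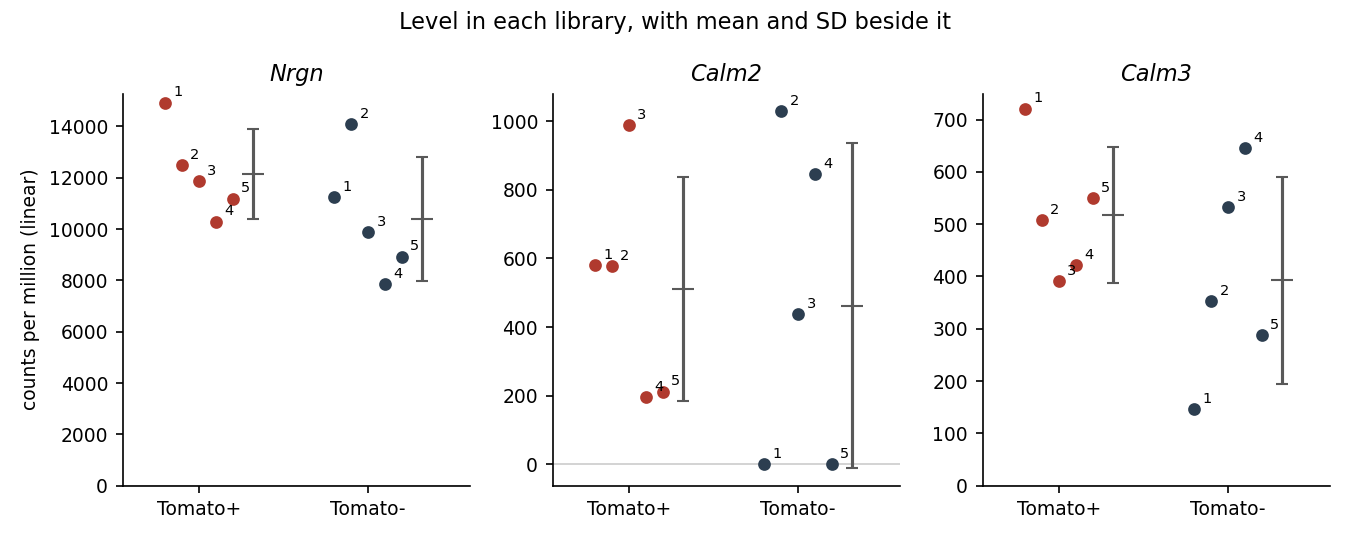
CPM (linear axes) of Nrgn, Calm2 and Calm3 in each library, labelled by replicate number, with Tomato+ in red left of Tomato- in dark blue and the mean with SD (n = 5) in grey. The groups overlap in all 3 panels, and Calm2 is at 0 in Tomato- replicates 1 and 5.

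All 3 genes passed the expression filter of the test. None of the 3 was called in edgeR's quasi-likelihood test at a Benjamini-Hochberg adjusted p under 0.05, where 0% of 1016 tested genes were called and 9 had an unadjusted p under 0.05. DESeq2 and limma voom called 1 gene each (0.0984%), and voom with the replicate number as a block 2 (0.197%). The gene that DESeq2 called was lower in Tomato+, whereas its estimates for the 3 members were above 0. Which genes voom called is not given here. None of the 3 members had groups without overlap, against 0.591% of tested genes, and 3 of 3 had an edgeR estimate above 0, against 58.3%. The rule that chose Nrgn used this contrast, so nothing is read from these counts. For the lowest nonzero value, 1190 counts of Calm3 in Tomato- replicate 1, the 95% Wilson interval was 137.8 to 154.4 CPM, and the half-width was at most 5.68% for any nonzero value, so counting error was small against the spread between libraries.

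Per length of exon, the genes ranked the same way within each fraction. Nrgn had 8363 ± 1208 CPM per kilobase in Tomato+ and 7155 ± 1661 CPM per kilobase in Tomato-. Calm2 had 348 ± 223 and Calm3 had 214 ± 53.8 CPM per kilobase in Tomato+, and in Tomato- these levels were 315 ± 323 and 162 ± 81.8 CPM per kilobase (SD, n = 5 each). The Calm2 and Calm3 levels differed by less than 1 SD of Calm2 in each fraction. Nrgn was 12th by level per kilobase of 4427 genes that had counts and an annotated length, Calm2 132nd and Calm3 204th. By CPM, Nrgn lay between rank 9 and rank 18 in every library, whereas Calm2 moved between 156 and 596 in the libraries where it was seen and Calm3 between 218 and 500.

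Nrgn was also among the steadier transcripts within a fraction. Its coefficient of variation, averaged over Tomato+ and Tomato-, was 18.8%, and 24 of the 225 genes with 10 counts or more in every library had a smaller one, with a median of 41.3%. The same measure was 37.8% for Calm3, where 96 genes had a smaller one. Calm2 was not among those 225 genes. The 225 genes were not matched to Nrgn in level. The rule that chose Nrgn used its abundance and how consistently it was higher in Tomato+, so its place among them is a description only.

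Genes with a level like that of Calm2 were often missing from a library too. This comparison was chosen after the values of Calm2 were seen. Of 161 other genes with a mean CPM within 1.5-fold of Calm2, 112 (69.6%) had 0 counts in at least 1 library, and 20 were at 0 in both Tomato- replicates 1 and 5. By library, 2 to 23 of the 161 were at 0 in Tomato+. In Tomato- the numbers were 67, 41 and 45 in replicates 1, 2 and 5, and 2 each in replicates 3 and 4. Among all genes, 10 had, Calm2 included, exactly the pattern of 0 counts in those 2 libraries and 10 counts or more in the other 8. Of 10 genes with a level within 1.5-fold of Nrgn, none was at 0 anywhere. Calm3, with no library at 0, stood beside 170 genes of like level of which 126 (74.1%) had one.

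**Figure D3:**
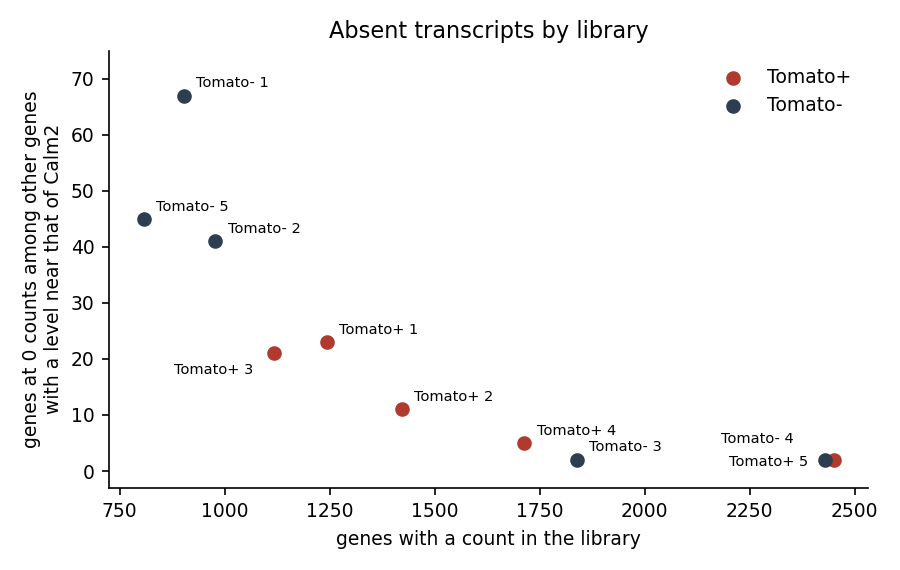
Number of genes at 0 counts among the 161 genes with a mean level within 1.5-fold of Calm2 (y axis) against the number of genes with a count (x axis), 1 point per library, Tomato+ in red and Tomato- in dark blue. The 3 libraries with under 1000 genes, all Tomato-, have 41 to 67 of the 161 at 0, and the other 7 libraries 2 to 23.

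Within each library, Nrgn counts were divided by the sum of Calm2 and Calm3 counts, which needs no scaling between libraries. The sum does not cover all calmodulin transcripts, so the ratio is one of these 3 genes and not of neurogranin to calmodulin as a whole. In Tomato+ it was 11.5, 11.5, 8.60, 16.7 and 14.7 in replicates 1 to 5, and in Tomato- it was 77.1, 10.2, 10.2, 5.26 and 31.1. The 2 high values are the libraries where Calm2 was at 0, and the other 3 Tomato- libraries were at or below 10.2. The mean was 12.6 ± 3.15 in Tomato+ and 26.8 ± 29.8 in Tomato- (SD, n = 5 each). Without Tomato- replicate 1 the Tomato- mean was 14.2, and with the 3 low-complexity libraries left out it was 7.72 over the remaining 2. Divided by exon length, the ratio had a median of 14.8 in Tomato+ and 13.1 in Tomato-. Either way Nrgn transcripts outnumbered those of Calm2 and Calm3 together in all 10 libraries.

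The share of Calm2 in the sum of both also moved from library to library. It lay between 27.8 and 71.7% in Tomato+ and between 0 and 74.5% in Tomato-. The sum of both genes was 1029 ± 332 CPM in Tomato+ and 855 ± 617 CPM in Tomato- (SD, n = 5 each).

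**Figure D4:**
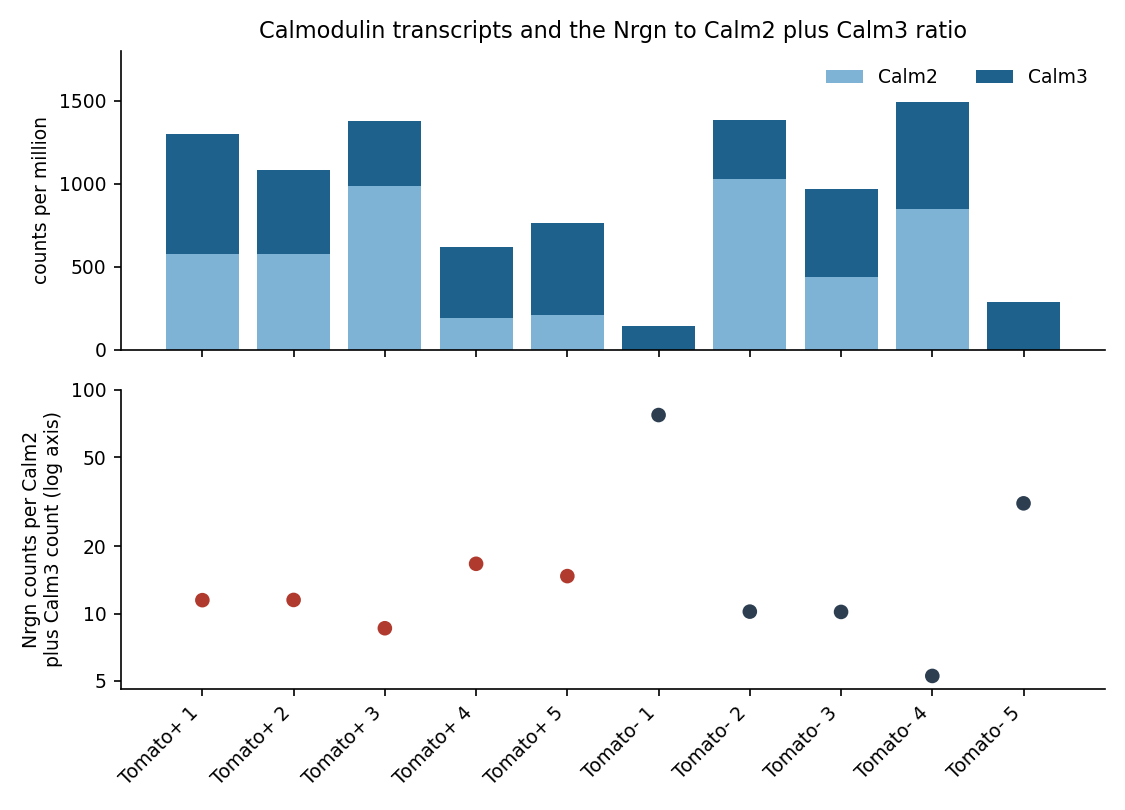
Upper panel, CPM of Calm2 (light blue) and Calm3 (dark blue) stacked for each library; lower panel, Nrgn counts per count of Calm2 plus Calm3 on a log axis, Tomato+ in red and Tomato- in dark. The ratio lies between 8.60 and 16.7 in Tomato+ and between 5.26 and 77.1 in Tomato-.

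The genes most like Nrgn across the 10 libraries were Tmsb4x, Itm2b, Fth1, Cd9 and Vwf. Likeness was the root mean square difference of log2 CPM after each gene was centred on its own mean, over the 214 genes with 10 counts or more in every library that were compared. It was 0.155 for Tmsb4x, which encodes the actin-sequestering thymosin beta 4, and 0.238 for Itm2b, which encodes an integral membrane protein. For Fth1 (ferritin heavy chain), the tetraspanin Cd9 and Vwf (von Willebrand factor) it was 0.255, 0.268 and 0.282. A flat line would be 0.270 from Nrgn, so Fth1 and Cd9 were barely closer than no pattern at all and Vwf was no closer. The median over the compared genes was 0.719. The closest to Calm3 were Esd (S-formylglutathione hydrolase) at 0.391, Atox1 (a copper chaperone) at 0.423 and Arhgdib at 0.449, where a flat line would be 0.635 away. All 3 share the low value of Calm3 in Tomato- replicate 1. Calm2 was not compared because it lacks counts in 2 libraries.

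**Figure D5:**
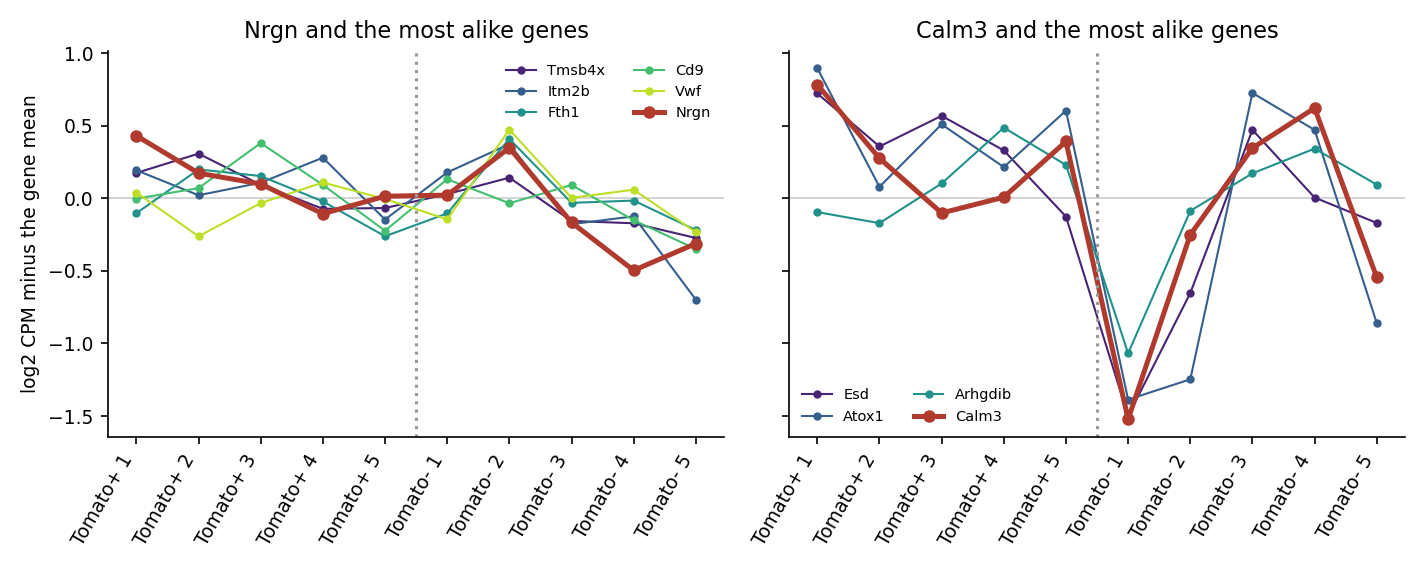
Log2 CPM minus the mean of each gene (y axis) in the 10 libraries (x axis), for Nrgn with its 5 most alike genes and for Calm3 with its 3, the members in thick red; lines join libraries to guide the eye, and the dotted line parts Tomato+ from Tomato-. Calm3 and its like genes drop together in Tomato- replicate 1.

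Genes of 7 lists were compared between the fractions in the same edgeR fit over all genes. They act with calmodulin, or encode protein kinase C isoforms or other EF-hand proteins. Of 122 genes in these lists, 61 had any count and 30 were abundant enough to be tested. Among those tested, 12 were from the list of other EF-hand proteins and 3 were protein kinase C genes. At an adjusted p under 0.05, 0 rose and 0 fell (edgeR, Benjamini-Hochberg adjusted p = 0.9996 for each gene named below), and 0 had an unadjusted p under 0.05, where 9 of 1016 tested genes did. Of the 30, 13 had an estimate above 0 and 17 below, with a median log2 fold change of -0.07 beside 0.21 over all tested genes.

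Most kinases that calmodulin switches on were at 0 in part or all of the libraries. Mylk, the myosin light chain kinase, had counts in all 10, at 1427 ± 440 CPM in Tomato+, against 1212 ± 799 CPM in Tomato- (SD, n = 5 each; log2 fold change 0.49, SE 0.53). Its log2 fold change was 0.93 without Tomato- replicate 5, the highest at 2592 CPM, 0.24 without Tomato- replicate 2, 0.30 without Tomato+ replicate 4 and 0.24 when scaled by total counts. Camk1 was counted in 4 libraries of Tomato+ and 2 of Tomato-, and Dapk1 in 4 and 3, with medians of 12.4 and 21.3 CPM in Tomato+ and 0 and 2.96 CPM in Tomato-. Both were at 0.154 CPM in Tomato+ replicate 3, where 3 counts correspond to 0.461 CPM. Of 20 listed kinases, 7 had any count and 3 were tested, of which 1 had an estimate above 0, with a median of -0.05. Calcineurin, the calmodulin-dependent phosphatase, was sparse as well. Its catalytic subunit gene Ppp3ca was counted in 3 libraries of Tomato+ and 2 of Tomato-, at most 351.3 and 181.8 CPM. Nfatc1, a transcription factor that calcineurin activates, had counts in 3 and 2 libraries, at most 285.7 CPM in Tomato+ and 965 CPM in Tomato-. Those 2 were the tested members of 13 listed, 5 of which had any count, and their log2 fold changes were 0.86 (SE 2.83) and -0.48 (SE 2.85). Without Tomato+ replicate 1 that of Ppp3ca was -0.48, and without Tomato- replicate 2 that of Nfatc1 was 2.11. Of the pumps and second messenger enzymes, 5 of 19 had any count and 1 was tested, the calcium release channel gene Itpr2, with a median of 121 CPM in Tomato+, against 27.7 CPM in Tomato-, and a log2 fold change of -0.40 (SE 2.47). The medians and the fold change of Itpr2 point opposite ways: Tomato- replicate 1 had 1020.5 CPM, and without it the log2 fold change was 2.09.

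Other calmodulin-binding proteins were better covered. Cnn2, which encodes the actin-binding calponin 2, had 5873 ± 1406 CPM in Tomato+, against 7064 ± 2285 CPM in Tomato-, with a log2 fold change of -0.01 (SE 0.24). Cald1, which encodes caldesmon, had 832 ± 380 and 1344 ± 523 CPM in Tomato+ and Tomato- (log2 fold change -0.38, SE 0.57). Pcp4l1, which encodes a small protein with an IQ motif as neurogranin has, was present in all 10 libraries, between 93.6 and 2028 CPM in Tomato+, against between 193 and 1961 CPM in Tomato-, and its log2 fold change was 0.68 (SE 0.84). In this list 12 of 25 genes had any count and 5 were tested, 1 with an estimate above 0 and 4 below. The median was -0.38, and 0.40 without Tomato- replicate 5.

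Platelet receptors that bind calmodulin at their cytoplasmic tails were all tested, 1 of 4 with an estimate above 0 and 3 below, with a median of -0.28. Gp1bb and Gp5, which encode subunits of the von Willebrand factor receptor complex, had 3050 ± 392 and 1309 ± 455 CPM in Tomato+ and 3899 ± 610 and 1995 ± 749 CPM in Tomato-. Their log2 fold changes were -0.13 (SE 0.27) and -0.44 (SE 0.46). Gp6, the collagen receptor, had the smallest p of all listed genes (unadjusted p = 0.0598, edgeR adjusted p = 0.9996, log2 fold change -1.46), and 3 of its 5 Tomato- libraries, again those with under 1000 detected genes, were above the highest Tomato+ library at 763.6 CPM. With those 3 libraries left out its log2 fold change was -0.37.

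The protein kinase C genes, whose products phosphorylate neurogranin, were at low and irregular levels. Prkcq was counted in 5 libraries of Tomato+ and 2 of Tomato-, with medians of 213 and 0 CPM, and Prkca in 4 and 1, with medians of 56.7 and 0 CPM. In Tomato+ replicate 3, Prkcq was at 0.461 CPM, which is 3 counts. Prkcd had counts in 3 libraries of each fraction, with medians of 1.38 CPM in Tomato+ and 127 CPM in Tomato-. Of 9 listed genes 5 had any count and 3 were tested, with log2 fold changes of 1.23 (SE 2.54), 2.97 (SE 2.94) and -1.95 (SE 2.77) for Prkcq, Prkca and Prkcd and a median of 1.23. Without the low-complexity libraries the median was 0.019. Prkca had 12.84 without Tomato- replicate 3, its sole Tomato- library with counts, and 1.57 without Tomato+ replicate 4, and Prkcd had -0.62 without Tomato- replicate 5. The log2 fold change of Prkcq was 2.60 without Tomato- replicate 4.

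Among other proteins with EF-hands, the light chains of myosin led. Myl9, the regulatory light chain that the kinase encoded by Mylk phosphorylates, had 10047 ± 2556 CPM in Tomato+, against 11310.5 ± 2045 CPM in Tomato-. Myl6, the essential light chain, had 4309 ± 372 and 4158 ± 907 CPM in Tomato+ and Tomato-, and S100a1, a small calcium-binding protein gene, had 1930.3 ± 610 and 1974 ± 497 CPM. Their log2 fold changes were 0.07 (SE 0.22), 0.28 (SE 0.25) and 0.21 (SE 0.37), and with scaling by total counts those of Myl9 and S100a1 were -0.17 and -0.034. In this list 23 of 32 genes had any count and 12 were tested, 7 with an estimate above 0 and 5 below, with a median of 0.11. Scaled by total counts, estimates above 0 numbered 4 of 12, and the median was -0.11. The calmodulin-like genes Calml3 and Calml4 had at most 2.22 and 5.81 CPM in any library.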

How the data were processed

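The values are raw counts of reads per gene symbol, deposited by the authors as 1 table of 10 libraries. Trimmomatic, FastQC, STAR and featureCounts, without versions, and the build mm10 are named in the submitters' processing notes. Annotation, strand setting and read length are not given in the sources.

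CPM used the total of all rows. Tests used R 4.3.3 with edgeR 4.0.16 (its robust quasi-likelihood test after TMM scaling, and the default filter with a minimum count of 10 and minimum total of 15), with the group as the sole term and Benjamini-Hochberg adjustment over all tested genes at 0.05. Alternatives used DESeq2 1.42.0 and limma 3.58.1. The edgeR script was tested on simulated counts. No pair of libraries among 45 agreed within sampling noise. Coordinates, exon lengths and coding sequences come from GENCODE M21, in which 21777 symbols matched. Exon length is the union of annotated exons.

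The 3 genes and all lists were chosen with earlier results of these data known. Named genes are the 3 members, the 3 most abundant tested genes of each list, the 2 most abundant markers of each type and the most alike genes by root mean square difference of log2 CPM (prior count 2), leaving out Rn45s and predicted genes. Calml3, Calml4 and the other markers at 0 were named after their values were seen. The choosing rule covers 1 further gene, which is not reported here. No source names molecular identifiers, so intervals and limits cover counting error only.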

Additional observations from a re-analysis of the deposited data

Results flagged for a closer look

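For Nrgn, Calm2, Calm3, the ratio of Nrgn to Calm2 plus Calm3 and the 18 genes named from the gene lists by their abundance, the 5 libraries of each group were searched for 1 value far from the other 4 (Dixon's test, 44 groups). Chance gives about 1 in 20 groups for normally distributed values, but a group with 1 value above 0 is always found, so the number found is not read against that rate. There were 10 such values, none of them in Nrgn, Calm2, Calm3 or their ratio. In Tomato+, replicate 5 stood high in Dapk1 (219 CPM, the next library 41.5 CPM) and in Camk1 (224 CPM). Ppp3ca stood high in Tomato+ replicate 1 (351.3 CPM, the next 91.2 CPM) and Prkca in Tomato+ replicate 4 (300.2 CPM, the next 62.3 CPM). In Tomato-, replicate 5 stood high in Mylk (2592 CPM) and in Prkcd (1017 CPM). Replicate 1 of Tomato- stood high in Itpr2 (1020.5 CPM) and Cnn2 (11068 CPM), replicate 2 in Nfatc1 (965 CPM) and replicate 3 in Prkca (55.8 CPM, the other 4 at 0).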

How the results depend on the processing

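Fold changes and list medians were recomputed under up to 19 other settings, and CPM means and the ratio under those that bear on them. Ranks, coefficients of variation, counts of zeros, likeness, marker sums and the medians of the calcineurin and pump lists, which have 2 tested genes or fewer, were not recomputed. The log2 fold change of Nrgn was above 0 in all 19, between 0.23 and 0.56. Its sign was part of the rule that chose Nrgn, so nothing is read from it. The median over all tested genes moved as well. It was above Nrgn with limma voom (0.95, Nrgn 0.32) and in edgeR with the block (0.56, Nrgn 0.48). In the other settings it was below Nrgn. The log2 fold change of Calm2 was 4.51 with limma voom and 2.29 in edgeR with the block, and below 0 in 2 settings. That of Calm3 was -0.18 without the libraries under 1000 detected genes and above 0 otherwise. Leaving out 1 library at a time gave 0.40 to 0.52 for Nrgn, -0.10 to 0.79 for Calm2 and 0.38 to 0.89 for Calm3. Genes called higher over the whole table numbered 1 with limma voom, and genes called lower numbered 1 with DESeq2, against 0 with edgeR. The cause of these shifts was not tested.

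The labels do not say whether the replicate numbers pair the libraries. Deviations of same-numbered libraries from their group means correlated at -0.11 to 0.12, and 2 of 5 Tomato+ libraries correlated best with their own number. With few genes detected per library, these values cannot decide whether same-numbered libraries share an animal. With the replicate block, Nrgn had a log2 fold change of 0.48 in edgeR, limma voom called 2 genes higher, and the median of the protein kinase C list was 8.69 in edgeR and 4.91 with voom, against 1.23 in edgeR and 5.86 with voom without the block.

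Of 18 named list genes, 10 changed sign under some setting, none of them called in edgeR. With voom, edgeR with the block and voom with the block, Dapk1 had log2 fold changes of 0.71, 0.82 and 0.68 and Camk1 1.51, 1.09 and 1.64. Nfatc1 had 1.56 with voom and 1.48 in edgeR with the block, and Pcp4l1 -0.18 with voom. Without the libraries under 1000 detected genes, the log2 fold change was 1.10 for Nfatc1, -0.50 for Ppp3ca, 1.20 for Itpr2, -0.11 for Prkcq, 0.13 for Cnn2 and -0.035 for Myl9. Cnn2 had 0.094 with no filter. Myl9 had -0.091 with DESeq2 and with its size factors, -0.17 by total counts, -0.10 with 10 counts required in every library, -0.21 with voom and -0.13 with voom and the block, and S100a1 had -0.034 by total counts. Leaving out 1 library at a time gave -1.95 to 0.85 for Dapk1, -2.85 to 1.65 for Camk1, -1.21 to 2.11 for Nfatc1, -0.48 to 2.63 for Ppp3ca, -1.07 to 2.09 for Itpr2, -0.15 to 0.19 for Cnn2 and -0.089 to 0.17 for Myl9. The median of the list of IQ-motif and small calmodulin-binding proteins ran from -0.55 to 0.40.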
